A study of Mus musculus with 6 samples.

Results

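The vascular growth factor and angiopoietin genes Vegfa, Vegfb, Vegfc, Flt1, Kdr, Flt4, Nrp1, Nrp2, Angpt1 and Tek were followed through the cell types of the mouse adrenal gland. These 10 genes were taken by symbol from the 30406 genes that all libraries share, and all 10 were found. The mice were females of the strain C57BL/6 J and 10 to 11 months of age. Nuclei of their adrenal glands were sorted and sequenced as droplet libraries, where a unique molecular identifier (UMI) lets copies of one RNA be counted once. The labels give 2 libraries from knockout (KO) mice for Tmem127, a gene for a transmembrane protein of endosomes and lysosomes, and 3 from wild-type (WT) mice. Each library holds 1 pair of glands. The part of Tmem127 that was deleted, and the allele, were not stated. The title of the remaining library reads WT but its genotype label reads KO. It is given as the unassigned library and took part in no main test of genotype.

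After filtering, 21034 nuclei were kept, between 2802 and 4476 per library. Total UMIs per library ran from 4825169 in KO replicate 2 to 43377724 in WT replicate 1, so that the least deep library was a KO library. Tmem127 itself was at 45.9 and 45.0 CPM (counts of the gene per 1000000 UMIs of the same library and type) over all nuclei of the KO libraries, at 38.0, 38.1 and 36.1 CPM in WT and at 36.4 CPM in the unassigned library. With the deleted part unknown, that level checks no label. Any pair of libraries shared between 2 and 8 barcodes. Nuclei were clustered without the 10 genes and without 71 further genes of the same pathways, and clusters were named from other markers. In all, 15 types had at least 20 nuclei in enough libraries to be compared, among them 4 endothelial clusters that hold 4623 nuclei together.

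Vegfa, Vegfb and Vegfc encode secreted growth factors. Flt1 (VEGFR1) and Kdr (VEGFR2) are the tyrosine kinase receptors of VEGF-A, with Flt1 also binding VEGF-B, and Flt4 (VEGFR3) is the receptor of VEGF-C and is best known from lymphatic vessels. Nrp1 and Nrp2 are coreceptors that also bind semaphorins. Angpt1 is the ligand of Tek (Tie2), a receptor of endothelial cells that keeps vessels stable. In endocrine glands the hormone-making cells lie against a dense, fenestrated capillary bed that depends on VEGF-A. The adrenal cortex is supplied by sinusoids that run from the capsule through the zona glomerulosa and the zona fasciculata to the medulla.

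The receptor genes Flt1, Kdr and Tek are shown here by their promoters, because in every library these 3 genes lay higher in each of the 4 endothelial clusters than in any other type compared. The sequences are those of RefSeq on the build GRCm38.p6 and run from 250 bases before to 50 bases after the start of the gene, on the strand of the gene. Capitals mark GGAAG or its reverse complement CTTCC, a form of the core of sites bound by ETS factors. These are a family of transcription factors active in endothelium. Shorter or other forms of that core were neither marked nor counted. Flt1 lies on the minus strand at chr5:147725962-147726261, Kdr on the minus strand at chr5:75978406-75978705 and Tek on the plus strand at chr4:94739039-94739338.
Flt1: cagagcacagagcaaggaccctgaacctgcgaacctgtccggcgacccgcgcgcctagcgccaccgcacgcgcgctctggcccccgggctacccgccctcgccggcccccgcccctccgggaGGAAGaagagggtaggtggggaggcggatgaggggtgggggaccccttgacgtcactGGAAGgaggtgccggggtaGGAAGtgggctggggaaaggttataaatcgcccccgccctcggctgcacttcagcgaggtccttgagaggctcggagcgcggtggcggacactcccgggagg
Kdr: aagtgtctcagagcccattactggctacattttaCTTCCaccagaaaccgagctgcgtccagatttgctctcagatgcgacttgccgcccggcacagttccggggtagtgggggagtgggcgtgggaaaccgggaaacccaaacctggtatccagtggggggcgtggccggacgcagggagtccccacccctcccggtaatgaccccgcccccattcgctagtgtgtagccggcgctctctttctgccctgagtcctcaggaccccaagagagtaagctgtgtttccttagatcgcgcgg
Tek: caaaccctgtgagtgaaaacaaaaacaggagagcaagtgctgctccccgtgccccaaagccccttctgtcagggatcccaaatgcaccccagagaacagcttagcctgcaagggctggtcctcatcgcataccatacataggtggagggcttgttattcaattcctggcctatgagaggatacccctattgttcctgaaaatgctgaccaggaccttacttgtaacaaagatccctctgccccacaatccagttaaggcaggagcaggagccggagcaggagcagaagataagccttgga

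The Flt1 window holds 3 matches to these exact letters, the Kdr window 1 and the Tek window 0. Of all 32851 promoter windows of this length, 71.4% hold at least 1 match on either strand and 16.5% hold at least 3. Promoters were found for 9 of the 10 genes. Nrp1 has 4 matches and Flt4 has 1, whereas Nrp2, Vegfb and Vegfc have 0. Vegfa has 2 windows, with 1 and 2 matches. The core of the hypoxia response element, ACGTG on either strand, is in 19.6% of all windows, and of these 10 windows it is found once, in the downstream window of Vegfa. These matches describe letters in a window and no binding was measured.

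Vegfa was made chiefly by the steroid-producing cells of the cortex. Its mean level over the 6 libraries was 527 ± 95.1 CPM (SD, n = 6) in zona fasciculata-like nuclei, 453 ± 99.5 CPM in cluster 4, 356 ± 88.6 CPM in zona glomerulosa-like nuclei and 332 ± 73.6 CPM in X-zone or inner cortex-like nuclei. Cluster 4 was left without a name, and its nuclei were led by Oca2 and Cthrc1. Its summed zona fasciculata markers stood at 43.3% of the level in the zona fasciculata-like type. By the same sum the zona glomerulosa-like type stood at 29.7% and the X-zone or inner cortex-like type at 93.7%. The inner cortex name rests on 3 markers of its own list, while 10 zona fasciculata markers also passed in that type. The adipocyte-like nuclei reached 538 ± 89.2 CPM, which was above the zona fasciculata-like level in 4 of 6 libraries. Zona fasciculata exceeded cluster 4 in 6 of 6 libraries and cluster 4 exceeded zona glomerulosa in 6 of 6, although the ranges of neighbouring types overlapped. Below these 5 types the level dropped by a factor of 2.76 to the capsule or fibroblast-like nuclei, at 120 ± 31.0 CPM, and those ranges did not overlap.

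By library, Vegfa in zona fasciculata-like nuclei was at 553 and 430 CPM in KO, at 545, 468 and 470 CPM in WT and at 695 CPM in the unassigned library. The KO and WT values overlapped, and the unassigned library was the highest. Because the cortex is also the bulk of the gland, the 4 cortical types together held 82.4% ± 3.14 (SD, n = 6) of all Vegfa UMIs, with 44.8% of the nuclei and 58.2% of all UMIs. The zona fasciculata-like type alone held 32.8%, cluster 4 held 21.0%, zona glomerulosa 16.7% and inner cortex 11.9%. Adipocyte-like nuclei, with 2.16% of the nuclei, held 5.17%.

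Chromaffin-like nuclei, the catecholamine-making cells of the medulla, held Vegfa at 82.3 ± 15.1 CPM, and macrophage-like nuclei at 78.5 ± 19.8 CPM. The 4 endothelial clusters had between 73.0 and 92.4 CPM. RNA set free from broken cells can give such a low, even level. In endothelial cluster 1 Vegfa stood at 13.7% of the zona fasciculata-like level, and the 12 zona fasciculata markers summed stood at 7.20%. In chromaffin-like nuclei Vegfa stood at between 10.7% and 20.4% by library and the markers at between 2.83% and 8.33%. How much of the remaining Vegfa was made in those cells was not tested. After every nucleus was thinned to 1000 UMIs, 42.1% of zona fasciculata-like and 40.6% of adipocyte-like nuclei had a Vegfa UMI, against 7.38% in endothelial cluster 1 and 10.2% in chromaffin-like nuclei.

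Vegfb, whose product binds Flt1 and the coreceptor Nrp1, was low everywhere. Its highest level was 29.1 ± 12.1 CPM in adipocyte-like nuclei, with values from 15.0 to 48.0 CPM. All other types with 6 libraries lay at or below 14.7 CPM, and neighbours in that order did not separate. Over all nuclei it was at 10.0 ± 3.35 CPM.

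Vegfc showed another source, an endothelial cluster in which most of the arterial genes were highest. Endothelial cluster 19 carried the arterial genes Gja5 at 76.3 CPM, Sox17 at 516 CPM and Bmx at 334 CPM. Of that list, Gja4, Hey1, Fbln5, Mgp and Stmn2 were also highest there. Efnb2 was highest in cluster 16, and Hecw2 was highest in cluster 1 and lowest in cluster 19. Of the capillary or sinusoid genes, Cd36, Ehd4, Car4 and Fabp4 were highest in cluster 19 and the others elsewhere. Vegfc in cluster 19 was at 1266 ± 352 CPM. By library the values were 933 and 917 CPM in KO, 1213, 1424 and 1242 CPM in WT and 1864 CPM in the unassigned library. This was 6.51 times the level of endothelial cluster 16, at 194 ± 80.0 CPM, and the ranges did not overlap. Endothelial cluster 1 had only 49.9 ± 20.4 CPM. After thinning, 47.7% of cluster 19 nuclei had a Vegfc UMI, against 10.9% in cluster 16, 6.65% in cluster 8 and 4.09% in cluster 1.

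Outside the endothelium, Vegfc was found in stroma and, at a lower mean level, in the cortical types. Capsule or fibroblast-like nuclei were at 105 ± 12.8 CPM, and within them the cluster led by Ptprq and Clca3a1 (374 nuclei) reached 298 ± 43.4 CPM and the one led by Luzp2 and Rspo3, the latter a WNT agonist of the adrenal capsule, reached 166 ± 37.1 CPM. The largest stromal cluster, led by Fbn2 and Prdm6, had 32.0 ± 15.7 CPM. Mesothelium-like nuclei were numerous enough in 2 libraries, with 1379 CPM in KO replicate 2 from 36 nuclei and 347 CPM in the unassigned library from 58 nuclei. Endothelium held 44.7% ± 11.3 of all Vegfc UMIs, and cluster 19 by itself held 24.2% ± 14.2 with 1.47% of the nuclei. Stroma held 21.3% ± 7.63. The 4 cortical types, with 58.2% of all UMIs, held 24.2% ± 15.2 of Vegfc UMIs. Their share ran from 3.77% in the unassigned library to 44.8% in WT replicate 1, a wide spread between libraries.

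Angpt1 was highest in mural cells. Pericyte or smooth muscle-like nuclei had 557 ± 104 CPM, with 628 and 504 CPM in KO, 434, 546 and 725 CPM in WT and 508 CPM in the unassigned library. Genotypes overlapped there. Endothelial cluster 19 was second at 371 ± 81.0 CPM and lay below the pericyte-like level in 6 of 6 libraries, although the ranges overlapped. Adipocyte-like nuclei followed with 193 ± 54.3 CPM and fibroblast-like nuclei with 108 ± 26.6 CPM. The other 3 endothelial clusters had between 1.31 and 12.8 CPM, and the 4 cortical types had between 1.54 and 2.74 CPM. Pericyte-like nuclei held 32.1% ± 7.68 of the Angpt1 UMIs, fibroblast-like nuclei 31.7% ± 8.96, adipocyte-like nuclei 17.9% ± 4.14 and endothelium 11.2% ± 3.52. Cluster 19 was thus the highest of the 15 types for Vegfc and the second for Angpt1.

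**Figure D1:**
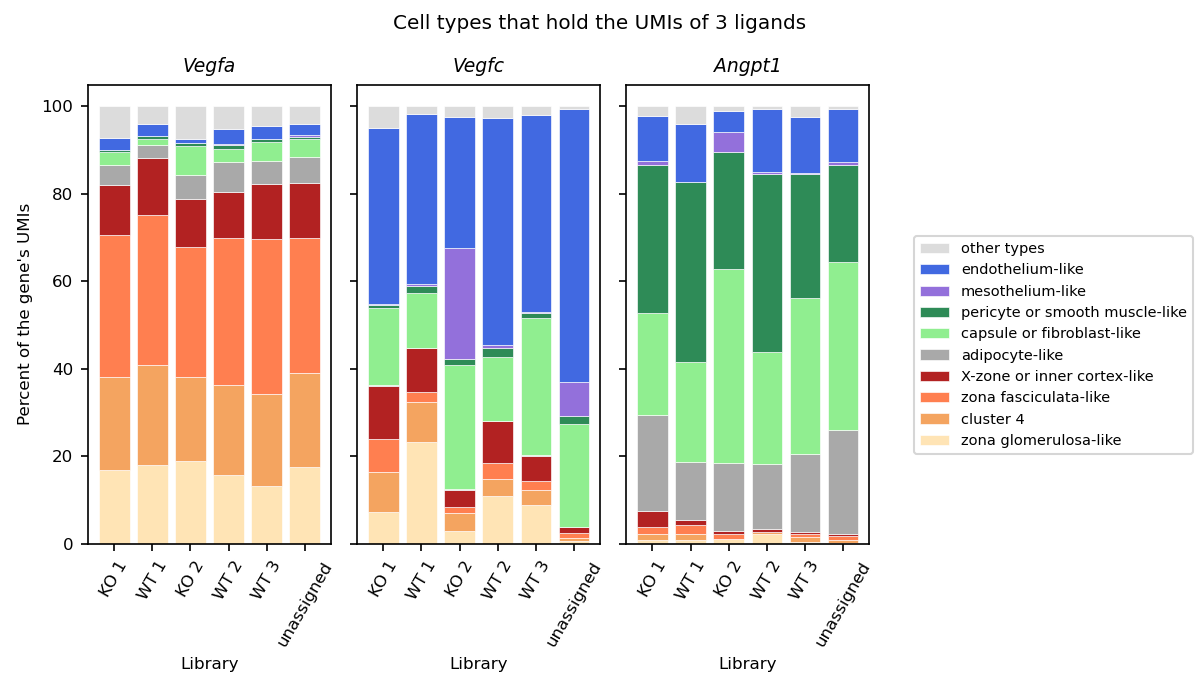
Percent of the UMIs of Vegfa, Vegfc and Angpt1 (vertical axis) that each cell type held in each of the 6 libraries (bars). The 4 cortical types fill at least 78.9% of every Vegfa bar, while the cortical shares of Vegfc range from 3.77% to 44.8%.

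The kinase receptors were endothelial genes in these glands. Endothelium-like nuclei made up 21.5% of nuclei and 9.90% of UMIs, yet they held 96.6% ± 0.736 of Flt1 UMIs, 94.2% ± 1.87 of Tek, 91.0% ± 2.96 of Flt4 and 90.4% ± 1.67 of Kdr. The lowest endothelial cluster exceeded the highest other type 65.6-fold for Flt1, 24.2-fold for Tek and 20.4-fold for Kdr, with no overlap between libraries. Flt4 was the exception: its lowest endothelial cluster, 19, exceeded the next type 10.7-fold, in 5 of 6 libraries, and those ranges overlapped. After thinning to 1000 UMIs, between 82.3% and 94.9% of nuclei in the 4 endothelial clusters had a Flt1 UMI, and at most 2.80% did in any other type. Endothelium-like nuclei were shallow, with a median from 857.5 UMIs in KO replicate 2 to 3489.5 in WT replicate 1. A small stromal cluster of 149 nuclei, led by Adamtsl3 and Gfpt2, was an exception for Tek, with 254 CPM in KO replicate 1, 385 CPM in WT replicate 3 and 220 CPM in the unassigned library, the only libraries with at least 20 of its nuclei. Its Flt1 levels were 13.4, 99.0 and 101 CPM in those libraries.

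**Figure D2:**
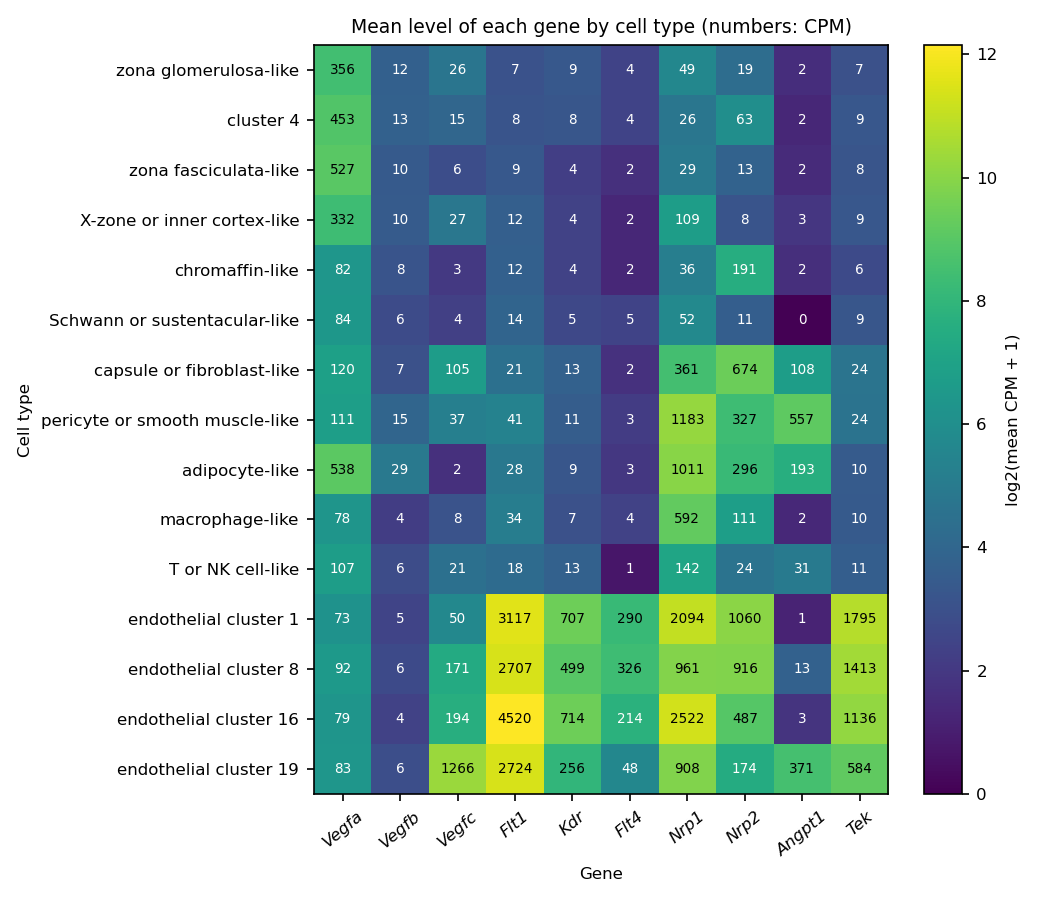
Mean CPM over libraries (printed in each cell, with colour on a log2 scale) of the 10 genes (columns) in 15 cell types (rows). Vegfa is high in the upper cortical rows and in adipocyte-like nuclei, and Flt1, Kdr, Flt4 and Tek in the 4 endothelial rows at the bottom.

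The endothelial clusters carried different receptor mixtures. Cluster 1 was the largest, with 2245 nuclei and with Ehd3, a gene of capillary and sinusoidal endothelium, at 702 CPM. Of the other genes listed for such endothelium, Rgcc and Gpihbp1 were also highest in cluster 1. Plvap and Stab2 were highest in cluster 8, and Cd36, Ehd4, Car4 and Fabp4 in cluster 19. Cluster 1 had the highest Tek, at 1795 ± 166 CPM, and the highest Nrp2, at 1060 ± 128 CPM. Cluster 16 (1044 nuclei), with the highest Efnb2 at 564 CPM, had the highest Flt1, at 4520 ± 252 CPM, and the highest Nrp1, at 2522 ± 680 CPM. Cluster 8 (1018 nuclei) had the highest venous Vwf, at 131 CPM, and lymphatic Reln, at 216 CPM, and it led for Flt4 at 326 ± 70.9 CPM. Cluster 19 (316 nuclei) was lowest for Kdr at 256 ± 88.2 CPM, for Flt4 at 48.1 ± 29.0 CPM, for Nrp2 at 174 CPM and for Tek at 584 ± 47.2 CPM.

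Set against each other in the same library, Flt1 in cluster 16 exceeded that in cluster 1 in 6 of 6 libraries, by 1.45 times on the means and with no overlap. Tek fell stepwise from cluster 1 to 8, to 16 and to 19, each step in 6 of 6 libraries, and only the last step, 1.94-fold, was free of overlap. Kdr did not separate clusters 16 and 1, at 714 ± 73.8 and 707 ± 121 CPM. It was 2.76 times higher in cluster 1 than in cluster 19, in 6 of 6 libraries. Flt4 was 4.45 times higher in cluster 16 than in cluster 19, with no overlap, whereas clusters 8 and 1, which had the highest levels, overlapped. These are levels of clusters built without the 10 genes and are given without a test.

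**Figure D3:**
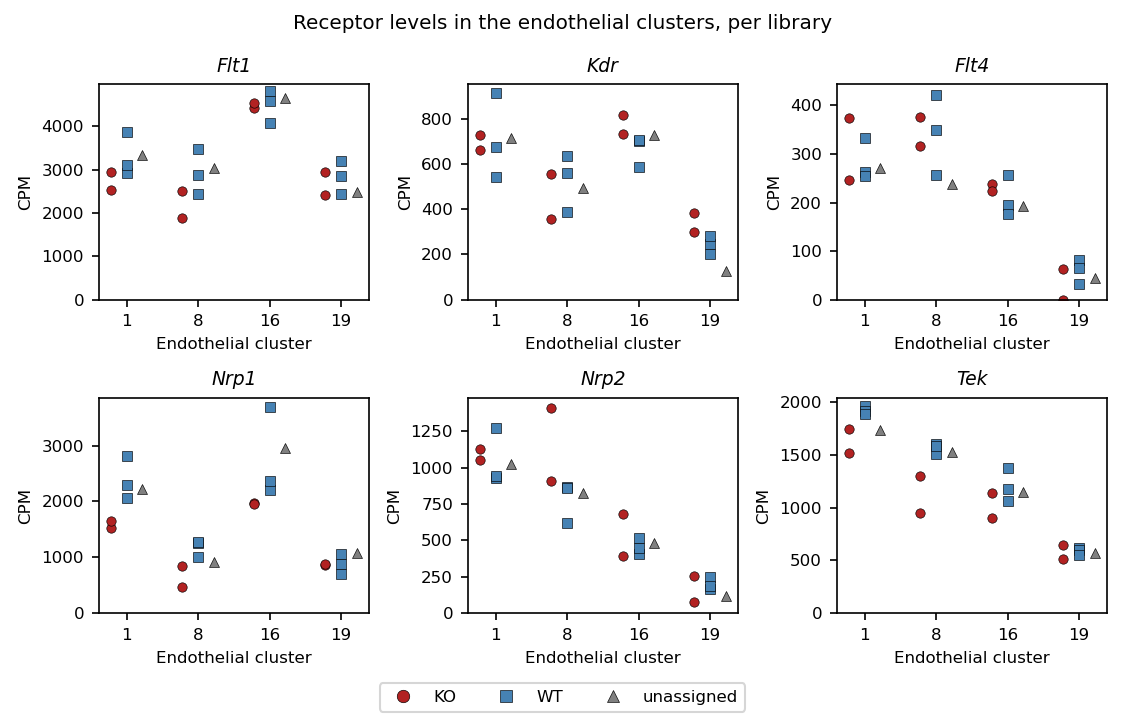
CPM of 6 receptor genes (one panel each) in endothelial clusters 1, 8, 16 and 19 (horizontal axis), with 1 point per library. Cluster 19 lies below the others for Flt4, Nrp2 and Tek, and cluster 16 is highest for Flt1.

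Flt4 is best known from lymphatic vessels, and its highest cluster held a few nuclei with at least 2 lymphatic genes. Of the 4623 endothelium-like nuclei, 35 had UMIs of at least 2 of the 6 genes Prox1, Lyve1, Pdpn, Ccl21a, Mmrn1 and Reln, and 31 of these lay in cluster 8. Pooled over libraries, these 35 nuclei had Flt4 at 640 CPM, from 62 UMIs, against 272 CPM in the other 4588. Nrp2, the coreceptor of lymphatic endothelium, was at 1527 CPM against 787 CPM. Flt1 was at 908 CPM against 3319 CPM, Tek at 392 against 1562 CPM and Nrp1 at 485 against 1904 CPM. Vegfc had 0 UMIs in the 35 nuclei. The other 4588 nuclei gave 3081 Flt4 UMIs, so most endothelial Flt4 lay outside the nuclei with at least 2 of these genes. The 4588 had fewer than 2 of them detected and were not all free of lymphatic genes. This grouping of nuclei was chosen after the clusters were seen.

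The coreceptors were spread beyond the endothelium. Endothelium held 57.4% ± 7.40 of Nrp1 UMIs and 41.6% ± 8.38 of Nrp2 UMIs. Nrp1 was at 1183 ± 285 CPM in pericyte or smooth muscle-like nuclei, at 1011 ± 220 CPM in adipocyte-like nuclei and at 592 ± 91.1 CPM in macrophage-like nuclei. All 3 ranges overlapped with those of endothelial clusters 8 and 19, at 961 ± 301 and 908 ± 140 CPM, although macrophage-like nuclei lay below cluster 19 in 6 of 6 libraries. Nrp2 was at 674 ± 124 CPM in fibroblast-like nuclei, above endothelial cluster 16 in 6 of 6 libraries, and the stromal cluster led by Fbn2 and Prdm6 reached 871 ± 140 CPM. Chromaffin-like nuclei had Nrp2 at 191 ± 46.7 CPM but Nrp1 at only 35.6 CPM. Fibroblast-like nuclei held 29.98% of Nrp2 UMIs and chromaffin-like nuclei 11.7%.

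Genes with the most similar pattern over the 15 types were sought among 13217 genes by Pearson correlation of mean log2(CPM + 1). For Kdr these were Tie1 (r = 0.987), Tek (0.986) and Mmrn2 (0.985). Flt1 was closest to Cd300lg (0.990), Ptprb (0.989) and Erg (0.988), and Tek to Adgrl4 (0.989), Kdr and Erg. Flt4 was closest to Robo4 (0.986). Vegfa was closest to Slc44a3 (0.954), Vegfc to Ier5l (0.901), Nrp1 to Clec2d (0.911), Nrp2 to Gm12353 (0.919), Angpt1 to Podn (0.866) and Vegfb to C330007P06Rik (0.963). The 15 points share libraries and are not independent, and 4 of them are endothelial.

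KO was compared with WT for every gene on UMIs summed per library and type, with edgeR's quasi-likelihood test, a term for the gene annotation of the library and Benjamini-Hochberg adjustment over all genes tested. Over 12 types and the 4 endothelial clusters, 111 tests of the 10 genes were possible after the filter on low counts, and 1 passed an adjusted p of 0.05. Calls were rare in general: beside the zona glomerulosa-like type, from 0% of genes (in 5 of the 12 types and 3 of the 4 clusters) to 0.285% in T or NK cell-like nuclei were called, with 0.253% in adipocyte-like, 0.073% in cluster 4, 0.0696% in macrophage-like, 0.0194% in fibroblast-like and 0.00949% in endothelium-like nuclei and 0.0923% in endothelial cluster 8. Vegfc was lower in KO in zona glomerulosa-like nuclei, the aldosterone-making cells of the outer cortex. It was at 18.0 and 14.8 CPM in KO, at 59.5, 30.03 and 28.0 CPM in WT and at 2.81 CPM in the unassigned library. Both KO libraries lay below every WT library, as they did for 12% of the genes tested there, and the unassigned library was lower still. The log2 fold change was -1.52 ± 0.27 (SE), with an adjusted p of 0.0130 in edgeR. In this type 8 of the 10 genes passed the filter, with a median log2 fold change of 0.14 against 0.02 for all genes tested. Of the 10670 genes tested there, 0.637% were called, 0.403% as lower in KO.

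The call rests on few molecules, 51 and 9 UMIs in KO and 394, 37 and 65 in WT. Within the libraries of the longer annotation, KO replicate 1 had 18.0 CPM against 59.5 CPM in WT replicate 1, and within the others KO replicate 2 had 14.8 CPM against 30.03 and 28.0 CPM. Without KO replicate 1 the log2 fold change was -0.98 with an adjusted p of 0.610 in edgeR, and without WT replicate 1 it was -0.98 with an adjusted p of 0.632. DESeq2 gave -1.44 with an adjusted p of 0.135. In the same nuclei the 12 zona glomerulosa markers summed to 8162 and 8748 CPM in KO and from 9432 to 10794 CPM in WT, with 12317 CPM in the unassigned library. The 12 zona fasciculata markers summed to 4667 and 4995 CPM in KO and from 4176 to 4399 CPM in WT. Of 22 marker lists, 4 separated the genotypes in this type, the other two being those of endothelium (87.0 to 100.2 CPM in KO, 56.5 to 82.0 CPM in WT) and of T or NK cells. Their part in the Vegfc result was not tested.

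In cluster 4, Vegfc was at 21.6 and 22.2 CPM in KO, at 23.4, 11.0 and 9.70 CPM in WT and at 2.60 CPM in the unassigned library. These groups overlapped. The KO effect in zona glomerulosa-like nuclei minus that in cluster 4 was -1.74 on the log2 scale, with an adjusted p of 0.0188 over all genes in an edgeR fit of both types with the library as a block, a fit added after the data were seen. In that fit 0.0525% of 11430 genes were called. With 1 library left out, the Vegfc difference passed only without WT replicate 3. The same difference from the zona fasciculata-like type was -2.22 (adjusted p = 0.757 in edgeR) and from the inner cortex-like type -1.41 (adjusted p = 0.953). The last of these fits called 0.0258% of genes. Vegfc was at 6.28 ± 3.27 CPM in zona fasciculata-like nuclei. The 6 fits between pairs of endothelial clusters called 0% of genes in 3 pairs and 0.0178%, 0.0274% and 0.0974% in the others, and none of the 10 genes was among them at an adjusted p of 0.05 in edgeR. The smallest adjusted p there was that of Vegfc in cluster 8 minus cluster 19, at 0.244, with a difference of 1.68 ± 0.43.

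**Figure D4:**
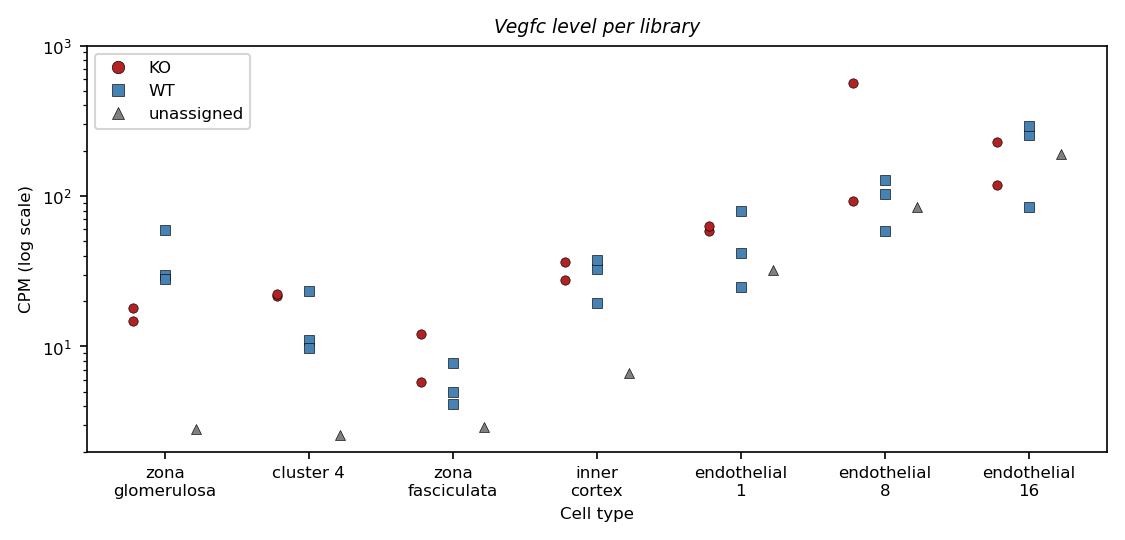
Vegfc level in CPM (log axis) in 4 cortical types and 3 endothelial clusters, with 1 point per library. In zona glomerulosa-like nuclei both KO libraries (18.0 and 14.8 CPM) lie below the WT libraries, as they do for 12% of genes tested there. In endothelial cluster 8 KO replicate 2 stands alone at 562 CPM.

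In endothelial cluster 8 Vegfc pointed the other way without passing the test. It was at 92.1 and 562 CPM in KO, at 58.8, 127 and 103 CPM in WT and at 84.6 CPM in the unassigned library. One KO library was far above all others and the other lay among the WT values. The log2 fold change was 1.55 ± 0.34, with an adjusted p of 0.112 in edgeR, and without KO replicate 2 it was 0.64 with an adjusted p of 1.0. Without KO replicate 1 it was 2.28, with an adjusted p of 0.00934. KO replicate 2 gave 41 Vegfc UMIs from 79 nuclei. In this cluster the 9 mesothelium markers summed to between 162 and 357 CPM in KO and between 42.7 and 151 CPM in WT, with 4 of the 9 at 0 throughout, and the 8 lymphatic markers to between 1299 and 1536 CPM in KO and between 695 and 1131 CPM in WT. Mesothelium-like nuclei of KO replicate 2 had Vegfc at 1379 CPM, and their part in the cluster 8 value was not tested.

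In cluster 19, the main source of Vegfc among endothelial clusters, both KO libraries lay below every WT library (933 and 917 against 1213 to 1424 CPM), with a log2 fold change of -0.42 ± 0.29 and an adjusted p of 0.914 in edgeR. Angpt1 in the same cluster was at 380 and 229 CPM in KO and at 408, 414 and 461 CPM in WT, with a log2 fold change of -0.36 ± 0.34 and an adjusted p of 0.960. Both genes had KO below every WT library, as did 14.0% of the 2830 genes tested in cluster 19. In pericyte-like nuclei Angpt1 differed by 0.08 ± 0.30 on the log2 scale.

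Among the receptors, Nrp1 showed the largest difference in endothelium-like nuclei, where all 10 genes were tested. It was at 1431 CPM in both KO libraries, at 1806, 2014 and 2503 CPM in WT and at 1973 CPM in the unassigned library. The groups did not overlap, and the unassigned library lay among the WT values. The log2 fold change was -0.53 ± 0.17, with an unadjusted p of 0.00770 that did not pass adjustment (adjusted p = 1.00 in edgeR). Its counterparts were -0.56 ± 0.18 in cluster 1, -0.85 ± 0.27 in cluster 8 and -0.44 ± 0.24 in cluster 16, also short of the threshold, with both KO libraries below every WT library in all 3, as were 8.20%, 9.23% and 9.66% of the genes tested there. In cluster 19 the values overlapped, at 860 and 879 CPM in KO and from 698 to 1052 CPM in WT. Outside the endothelium, Nrp1 also had both KO libraries below every WT library in adipocyte-like nuclei (-0.38 ± 0.30), as did 894 of 6726 genes. The stromal cluster led by Fbn2 and Prdm6 showed the same (-0.60 ± 0.20), as did 642 of 8134 genes. Neither passed (adjusted p = 0.880 and 0.571 in edgeR). Nrp1 went up in zona fasciculata-like (0.56 ± 0.62) and T or NK cell-like nuclei (0.33 ± 0.58), without passing. The coreceptor Nrp2 went the other way in cluster 8, at 906 and 1413 CPM in KO, at 618, 868 and 864 CPM in WT and at 827 CPM in the unassigned library. Both KO libraries lay above every WT library, as did 10.5% of the genes tested there. Nrp2 differed there by 0.61 ± 0.21 on the log2 scale, with an unadjusted p of 0.00974 that did not pass adjustment (adjusted p = 0.688 in edgeR). Kdr likewise had both KO libraries above every WT library in cluster 16, with a log2 fold change of 0.17 ± 0.22, and in cluster 19, with 0.58 ± 0.33, as did 10.7% and 10.5% of genes, and neither passed (adjusted p = 1.00 and 0.882 in edgeR).

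Tek in endothelium-like nuclei was at 1474 and 1256 CPM in KO, at 1647, 1602 and 1595 CPM in WT and at 1436 CPM in the unassigned library. The log2 fold change was -0.28 ± 0.15. Flt1 was at 3098 and 2774 CPM in KO, at 3113, 3269 and 3885 CPM in WT and at 3428 CPM in the unassigned library, a log2 fold change of -0.23 ± 0.16. Neither passed the test. Thus 3 of 10 genes had both KO libraries below every WT library, as did 7.78% of the 10534 genes tested in this type, and 0 of 10 lay above, as did 10.4% of genes. Of all genes in endothelium-like nuclei, 0.00949% were called. Kdr differed by 0.00 ± 0.19 with a 95% interval from -0.40 to 0.41, Flt4 by 0.04 ± 0.16 and Nrp2 by 0.24 ± 0.16. The median over the 10 genes was -0.11, against 0.01 over all genes tested. In these nuclei 7 of 22 marker lists separated the genotypes, among them the lymphatic one, at 654 and 656 CPM in KO and from 392 to 605 CPM in WT, and their part in these values was not tested.

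Summed over all nuclei, Tek was at 149 and 122 CPM in KO and at 182, 161 and 177 CPM in WT, with a log2 fold change of -0.44 ± 0.13 and an adjusted p of 0.614 in edgeR. Flt1 differed by -0.42 ± 0.16 and Nrp1 by -0.41 ± 0.13, and neither passed. Of all genes, 0% were called in edgeR, with 1162 at an unadjusted p under 0.05 and 56 called in DESeq2. Tek, Flt1 and Nrp1 were the 3 of 10 genes with both KO libraries below every WT library, as were 6.03% of the 16582 genes tested. Endothelium-like nuclei made up 21.4% and 14.8% of nuclei in KO, against 26.1%, 21.1% and 22.6% in WT. The unassigned library had 23.1%. In such sums fewer endothelial nuclei and less RNA per nucleus cannot be told apart. The share of endothelium gave an exact two-sided permutation p of 0.2, where the smallest p that 2 against 3 libraries allow is 0.1. Cluster 19 made up 1.09% and 0.857% of nuclei in KO and 1.50%, 1.52% and 1.64% in WT, at that smallest p of 0.1.

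Vegfa did not pass the test in any of the 12 types or 4 clusters. Its log2 fold change was -0.09 ± 0.21 in zona fasciculata-like nuclei, with a 95% interval from -0.55 to 0.36. In cluster 4 it was 0.05 ± 0.15, in the inner cortex-like type 0.04 ± 0.22 and in adipocyte-like nuclei -0.03 ± 0.30. In zona glomerulosa-like nuclei it was 0.25 ± 0.13, from 448 and 310 CPM in KO and 357, 272 and 273 CPM in WT, which overlap when pooled. Within the longer annotation KO replicate 1 had 448 CPM against 357 CPM in WT replicate 1, and within the other KO replicate 2 had 310 CPM against 272 and 273 CPM, so that KO was higher in both. The 95% interval ran from -0.02 to 0.52 and the adjusted p was 0.455 in edgeR. In chromaffin-like nuclei both KO libraries, at 106 and 87.7 CPM, lay above WT, at 83.2, 82.8 and 60.2 CPM, as did 12.5% of the genes tested there. The log2 fold change was 0.31 ± 0.20 and the adjusted p 0.916 in edgeR. The unassigned library was at 74.1 CPM there.

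**Figure D5:**
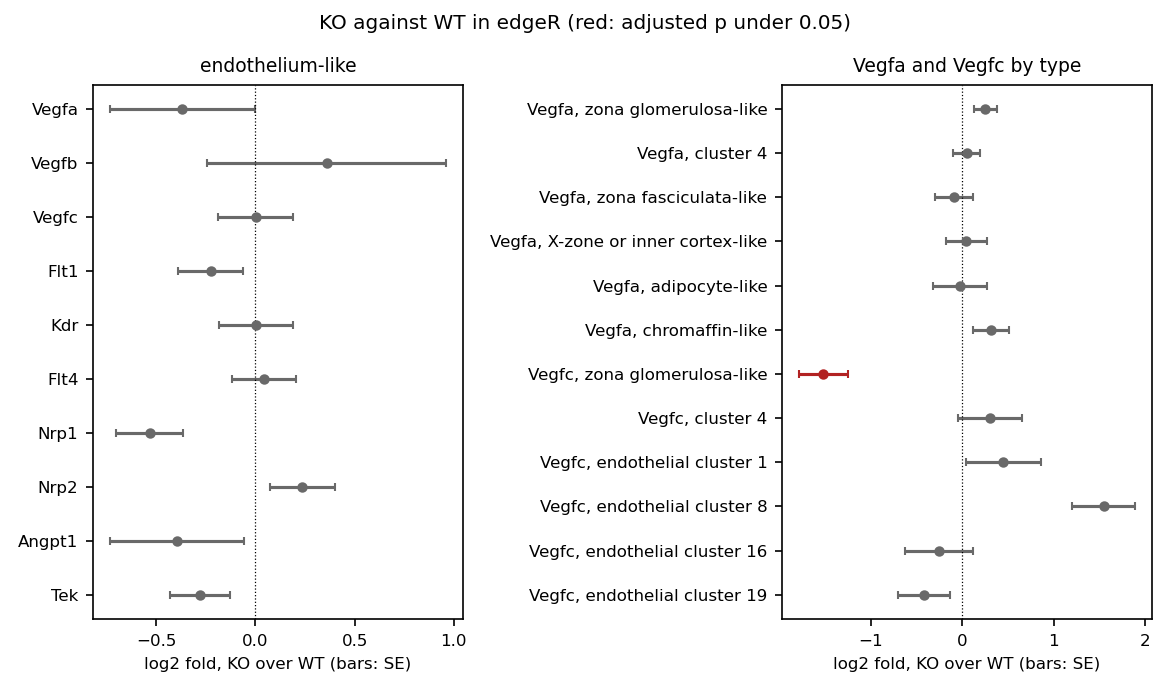
Log2 fold change of KO over WT with its SE for the 10 genes in endothelium-like nuclei (left) and for Vegfa and Vegfc by type (right). Only Vegfc in zona glomerulosa-like nuclei passed the test, at -1.52, and Nrp1 was the lowest of the 10 genes in endothelium-like nuclei, at -0.53.

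The other genes of these pathways were read from 5 lists, of which 2 genes in 1 type each passed. Among 10 other ligands, Sema3a, a semaphorin that binds Nrp1, rose in adipocyte-like nuclei, from 27.8, 26.7 and 21.2 CPM in WT to 120 and 112 CPM in KO, with 68.9 CPM in the unassigned library. The log2 fold change was 2.21 ± 0.40 and the adjusted p 0.0363 in edgeR. The call was lost under 7 alternatives, among them DESeq2 (adjusted p = 0.105) and, in edgeR, the fits without KO replicate 1 (0.146), without KO replicate 2 (0.243) and without the batch term (0.356). In those nuclei the background was 0.253% of 6726 genes, and 5 of 22 marker lists separated the genotypes, with endothelial markers at 678 and 741 CPM in KO and from 480 to 661 CPM in WT. Their part was not tested. Of 16 signalling genes, Grb14, an adaptor of receptor tyrosine kinases, fell in zona glomerulosa-like nuclei, from 226, 295 and 264 CPM in WT to 127 and 140 CPM in KO, with 273 CPM in the unassigned library. Its log2 fold change was -0.92 ± 0.14 and its adjusted p 0.00431 in edgeR. Both KO libraries lay below every WT library, as they did for 12% of the genes tested there. The zona glomerulosa and zona fasciculata marker sums given above for these nuclei also separated the genotypes. Their part in the Grb14 value was not tested. The Grb14 call was lost without the batch term (adjusted p = 0.266 in edgeR) and when the unassigned library joined the KO group (-0.53, adjusted p = 1.0) or the WT group (adjusted p = 0.0584).

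None of the 11 other receptors and partners, 23 endothelial response genes or 11 genes of oxygen sensing passed in any type or in all nuclei. Their smallest p-values belonged to the integrin gene Itgb1 in T or NK cell-like nuclei (log2 fold change -1.20 ± 0.41, adjusted p = 0.439 in edgeR), to Nr4a1 in fibroblast-like nuclei (1.22 ± 0.29, adjusted p = 0.276 in edgeR) and to Adm, the adrenomedullin gene, in chromaffin-like nuclei (1.50 ± 0.34, adjusted p = 0.593 in edgeR). In endothelium-like nuclei 58 of the 71 genes could be tested and 0 passed. By level alone, Angpt2, the other angiopoietin, was highest in Schwann or sustentacular-like nuclei, at 200.5 ± 66.8 CPM, and Vegfd, of the 15 types, in pericyte-like and inner cortex-like nuclei, at 130 ± 49.2 and 125 ± 33.8 CPM.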

How the data were processed

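The authors deposited, for 6 libraries, matrices of UMI counts by gene and barcode, made with Cell Ranger, versions 4.0.0 and 3.1.0, per the file headers. Seurat and the mm10 build are named in the submitters' processing notes. The handling of intronic reads was not stated. KO replicate 1 and WT replicate 1 list 32285 genes and the others 31053, and this annotation was the batch term. The 10 genes and the gene lists were chosen with earlier results of these data known.

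A barcode was dropped below 300 genes or from 5% mitochondrial UMIs on (48 of 21724). Also dropped were 642 marked doublets (scrublet in scanpy 1.11.5, 0.8% per 1000 barcodes). Nuclei were clustered (2000 variable genes without the members and lists, 30 components, Harmony for library, 20 neighbours, Leiden at 0.8). A cluster took a name with at least 3 markers of a list at a log2 fold of at least 1 and found in 10% or more of its nuclei, and names were ranked by leading genes. A cluster with no marker among its leading genes needed 50% of the list, a rule adjusted after the clusters were seen. Counts were summed per library and type with at least 20 nuclei, as CPM of those counts, and tested in edgeR 4.0.16 (TMM, filterByExpr, batch and genotype), with 95% intervals from the t distribution on the total degrees of freedom of the test. The unassigned library was left out. DESeq2 1.42.0 was an alternative. The scripts were tested on simulated data. Levels between types have no test, since clusters are built from the same nuclei. Named list genes are each gene that passed, or the smallest p of a list where none did. PCR duplicates are removed by UMIs, and the depth per library is given with the results. Promoters come from RefSeq.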

Additional observations from a re-analysis of the deposited data

Results flagged for a closer look

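The KO effect on Vegfc differed between zona glomerulosa-like nuclei and cluster 4. The first minus the second was -1.74 on the log2 scale, with an adjusted p of 0.0188 in an edgeR fit with the library as a block. In the first type both KO libraries lay below the WT libraries, as they did for 12% of the genes tested there. In the second the groups overlapped. The fit is 1 of 9 of its kind, and 0.0525% of genes were called in it. Its adjusted p moved to between 0.0106 and 0.585 when 1 library was left out, while the difference stayed between -2.02 and -1.66. The unassigned library had the lowest Vegfc level in both types, at 2.81 and 2.60 CPM.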

How the results depend on the processing

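No paired analysis was possible because the labels give no replicate number, and the numbers used here, in accession order, only name the libraries. The number of the 10 genes called over the 12 types was 1, and 0 with DESeq2, without the batch term, with coarser clusters, with these genes kept in the clustering and when the unassigned library joined the KO or the WT group. Leaving out 1 library gave 0 or 1. In endothelial clusters it was 0, but 1 without the filter on low counts, and 0 or 1 with 1 library left out, Vegfc in cluster 8 being the gene. Calls over all genes in the 12 types were 109, and 0 without the batch term, 862 without the filter, 31 and 9 with the unassigned library as KO or WT, and 176 to 733 with 1 library left out. In endothelial clusters they were 6, and 1 with DESeq2, 15 with DESeq2 size factors, 0 with doublets kept and without the batch term, 64 without the filter, 3 and 1 with the unassigned library as KO or WT, and 10 to 54 with 1 library left out. Over all nuclei they were 0, and 56 with DESeq2, 385 without the filter and 7 to 288 with 1 library left out. The Vegfc difference between zona glomerulosa and cluster 4 no longer passed with doublets kept (-1.57) or with the unassigned library as KO or WT (-1.69 and -1.67). With 1 library left out (-2.02 to -1.66) it passed only without WT replicate 3 (-1.69). The KO minus WT difference in the logit share of endothelial cluster 8 was -0.29 and turned to 0.0189 without KO replicate 2, within a range from -0.60 to 0.0189 as 1 library was left out. The cause of these changes was not tested. In fits with the annotation term, leaving out KO replicate 1 or WT replicate 1 leaves 1 library of its annotation. Those fits then compare KO replicate 2 with WT replicates 2 and 3. The fit with the library as a block and the test of shares had no annotation term. The type with the highest level was the same for at least 9 of the 10 genes under every alternative except without WT replicate 2, where it was the same for 8. KO replicate 2, with a median of 1289 UMIs per barcode, limits the weakly expressed genes.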
